A study of Mus musculus with 80 samples.

Results

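Integrated reporters that lay less than 1 kb from another reporter form a small, closely spaced subset of a barcoded reporter library in mouse embryonic stem cells. They were chosen by a rule on position and DNA counts. Members were the autosomal reporters with at least 10 DNA counts in every DNA library of their pool that had another such reporter, of any pool, under 1000 bp away on the same chromosome. There were 507 of them among 10576 autosomal reporters past that minimum (4.79%) and 10903 reporters in the whole table, and they made up 267 pairs. Of the members, 484 belonged to 1 pair, 19 to 2 pairs and 4 to 3 pairs.

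The reporter was a tet-Off transcription unit carried by piggyBac, and each integration was marked by a random barcode (the assay known as TRIP, in which many integrations are measured together). The cells were EBRTcH3 mouse embryonic stem cells, in which the tetracycline-controlled transactivator (tTA) is made from the ROSA26 promoter in every group. The groups were 4 pools of cells (A to D) at 3 doses of doxycycline (dox), 0.01, 0.1 and 100 in ng/ml, and without it. After transfection the cells had been sorted for low eGFP. Each pool had then been divided into 2 cultures, grown apart for 7 days, and each culture was spread over the 4 doses for 72 h. The growth protocol speaks of a PGK promoter, but the titles and plasmid name tet-Off, and the titles are followed here. The 2 cultures are technical replicates of 1 pool, so a p-value covers only how far such cultures lie apart.

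As background, tTA binds its operator and activates a promoter beside it, and dox releases tTA from DNA, so that the promoter loses its activator as dox rises. A reporter in the genome is also under the influence of the chromatin in which it lands, known as position effect. The piggyBac transposon inserts at TTAA, a site that reads the same on both strands, so an insertion can point either way. Close pairs therefore put the same transcription unit into nearly the same place in different cells or orientations. The difference within a pair holds all that its reporters do not share, such as barcode and often orientation or pool, beside distance.

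The barcodes of 4 pairs at adjacent positions are printed because they identify separate insertions at almost the same coordinate. They are copied from the deposited table, 5′ to 3′, with the position in mm9. Capitals mark the bases that both barcodes of a pair share at the same place, counted from the 5′ end. The first pair differed least at dox 0 (no dox) among the pairs at adjacent positions. The second pair took opposite courses with dox, and the others differed strongly at dox 0.
chromosome 3, 100908593, minus strand, pool A: caGaagtctAcgtcAt
chromosome 3, 100908594, plus strand, pool D: gtGtctataAtactAc
chromosome 13, 63383917, minus strand, pool B: cggcaaAAAgtActta
chromosome 13, 63383918, plus strand, pool D: tttagcAAAaaAtccg
chromosome 12, 60303669, minus strand, pool D: TagcaAacggTctgTg
chromosome 12, 60303670, plus strand, pool B: TgcttAcgtcTagtTt
chromosome 11, 117451102, minus strand, pool D: aagAAattcaTtccat
chromosome 11, 117451103, plus strand, pool D: tctAAcaaatTcatga
The barcodes of these pairs were 10, 9, 7 and 8 edits apart, an edit being a single-base substitution, insertion or deletion. Over all 267 pairs the barcodes were 5 to 13 edits apart, with a median of 10.

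RNA libraries held 1395690 to 1840870 counts at dox 0 and 729552 to 1355706 at dox 100, and DNA libraries held 928128 to 1571280 over all doses. Members had a median of 311 DNA counts and the other autosomal reporters 319. The median RNA count of members was 354 at dox 0, 322 at 0.01, 142 at 0.1 and 60.5 at dox 100. Levels of members in culture 1 and culture 2 had a Pearson r of 0.91 at dox 0 and 0.76 at dox 100. At dox 100, 152 of the 507 members had no RNA count in either culture and 102 had RNA in a single culture, so at that dose the counts limit what can be read from a level. The counts come from PCR with no molecular identifiers, and a bound set by 0 counts covers counting error only.

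The spacing of the pairs was uneven. There were 39 pairs at 1 bp, 25 at 2 to 100 bp, 58 at over 100 up to 300 bp and 145 at over 300 bp. This came to 25.3, 29.0 and 20.7 pairs per 100 bp of distance in the last 3 classes. No pair shared a position, none lay 2 to 6 bp apart, and the smallest distance above 1 bp was 7 bp. All 39 pairs at 1 bp had the minus-strand reporter at the lower and the plus-strand reporter at the higher coordinate. Beyond 1 bp, 120 pairs had both reporters on the same strand and 108 on opposite strands, of which 53 ran minus then plus and 55 plus then minus. Both reporters came from the same pool in 64 pairs and from different pools in 203. Whether the 1 bp pairs lie at a single TTAA, and which genes lie around the pairs, was not analysed here.

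The level of a reporter is the log2 ratio of its RNA to its DNA count, each plus 1 and over its library's total, set to 0 at the mean of its pool in each library pair. That mean fell with dox, in pool A culture 1 from −0.95 at dox 0 to −5.3 at dox 100. Levels are thus to be compared within a dose, and changes with dox come from a separate test with its own scaling. Within a pair, the left reporter is the one at the lower coordinate and a difference is left minus right. At dox 0 the median absolute difference of the 267 pairs was 1.06 on this log2 scale, and the median noise, taken as 0.5 of the change in that difference between cultures, was 0.35. The difference was within 1 in 126 pairs and over 3 in 31. In 186 of 267 pairs (69.7%) the 2 cultures of 1 reporter did not overlap those of the other, against 81.6% of all pairs of reporters on different chromosomes. The share was 72.8% at 1 to 10 kb and 80.4% for members on different chromosomes. With 2 cultures each, some pairs fail to overlap without any difference. Reporters less than 1 kb apart thus often differed by more than their replicate cultures did. They did so less often than reporters on different chromosomes and nearly as often as pairs at 1 to 10 kb.

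A second measure takes out the noise: a pair's difference in culture 1 is multiplied by that in culture 2, and the noise-corrected SD is the root of the mean product, so that error not shared by the cultures averages out. It was 1.97 at dox 0 for pairs under 1 kb, 2.10 for the 1176 pairs at 1 to 10 kb, and 2.75 for members set against members on different chromosomes. By distance it was 1.93 at 1 bp, 1.78 at 2 to 100 bp, 1.83 at over 100 up to 300 bp and 2.06 at over 300 bp. Pairs at adjacent positions thus differed about as much as pairs over 300 bp apart, though the classes differ in strand. All pairs at 1 bp lay on opposite strands. At over 300 bp the SD was 1.72 for same-strand and 2.38 for opposite-strand pairs, the latter with the widest pair of all. Taken against members on different chromosomes, a 48.8% smaller noise-corrected mean squared difference was seen under 1 kb and a 41.7% smaller one at 1 to 10 kb at dox 0. Pearson r within pairs under 1 kb was 0.46 at dox 0 over 267 pairs, a description only, since pairs share libraries and some share a reporter.

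**Figure D1:**
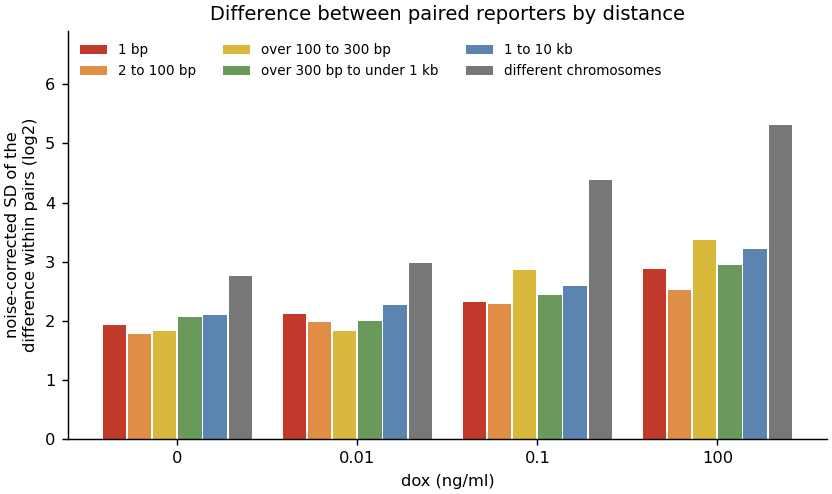
Noise-corrected SD of the difference in log2 RNA/DNA within pairs (y axis) at each dox dose (x axis), with a bar for each distance class and for members on different chromosomes. At each dose the bars of the classes under 1 kb stand below the bar for different chromosomes, and at dox 0 they range between 1.78 and 2.06 with no order by distance.

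With dox, close reporters spread apart on the log2 scale, and distant ones did so more. The median absolute difference under 1 kb was 1.06 at dox 0, 1.16 at 0.01, 1.66 at 0.1 and 2.06 at dox 100, beside a median noise of 0.35, 0.41, 0.64 and 0.85 at these doses. The noise-corrected SD was 1.97, 1.97, 2.51 and 2.99 under 1 kb and 2.75, 2.97, 4.38 and 5.31 between members on different chromosomes. The noise-corrected mean squared difference under 1 kb was smaller than that between chromosomes by 48.8% at dox 0, 55.9% at 0.01, 67.3% at 0.1 and 68.3% at dox 100. Among pairs of the same pool, whose scaling cancels, the mean over pools of the median absolute difference was 1.01 ± 0.50 at dox 0, 1.30 ± 0.31 at 0.01, 1.79 ± 0.31 at 0.1 and 1.83 ± 0.78 at dox 100 (SD, n = 4 pools, 9 to 23 pairs each). Its slope was 0.29 ± 0.19 per dose step (SD, n = 4 pools; two-sided exact permutation test over orders of dose in each pool, p = 0.00248). The value tested includes the noise between cultures, which also rose with dose, so the test cannot tell a wider difference from more noise. From culture 1 alone, that is without replicate 2, the slope was 0.16 (exact permutation p = 0.124). With only those pairs whose reporters both had RNA in both cultures, it was −0.02 (exact permutation p = 0.795).

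The pairs with RNA in both reporters were fewer at high dox, so that value compares different pairs at each dose. Both reporters had RNA in both cultures in 263 of 267 pairs at dox 0, 262 at 0.01, 191 at 0.1 and 94 at dox 100. In these pairs the noise-corrected SD was 1.73 at dox 0, 1.76 at 0.01, 1.79 at 0.1 and 1.61 at dox 100. At dox 100 both reporters lacked RNA in 39 pairs (14.6%), and 1 reporter had RNA in both cultures while the other had none in 44 (16.5%). Among members on different chromosomes the shares were 24.9% with RNA in both, 8.91% with none in either and 30.0% with RNA in 1 only, against 35.2% with RNA in both under 1 kb. Among all reporters on different chromosomes they were 9.43%, 23.3% and 29.7%, and among pairs at 1 to 10 kb they were 35.2%, 15.1% and 13.3%. Pairs under 1 kb thus had RNA in both reporters more often than pairs on different chromosomes, and lacked it in both more often than members there but less often than all reporters there. The shares at 1 to 10 kb lay near those under 1 kb. Where both lack RNA, the difference in level comes from the DNA counts alone.

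**Figure D2:**
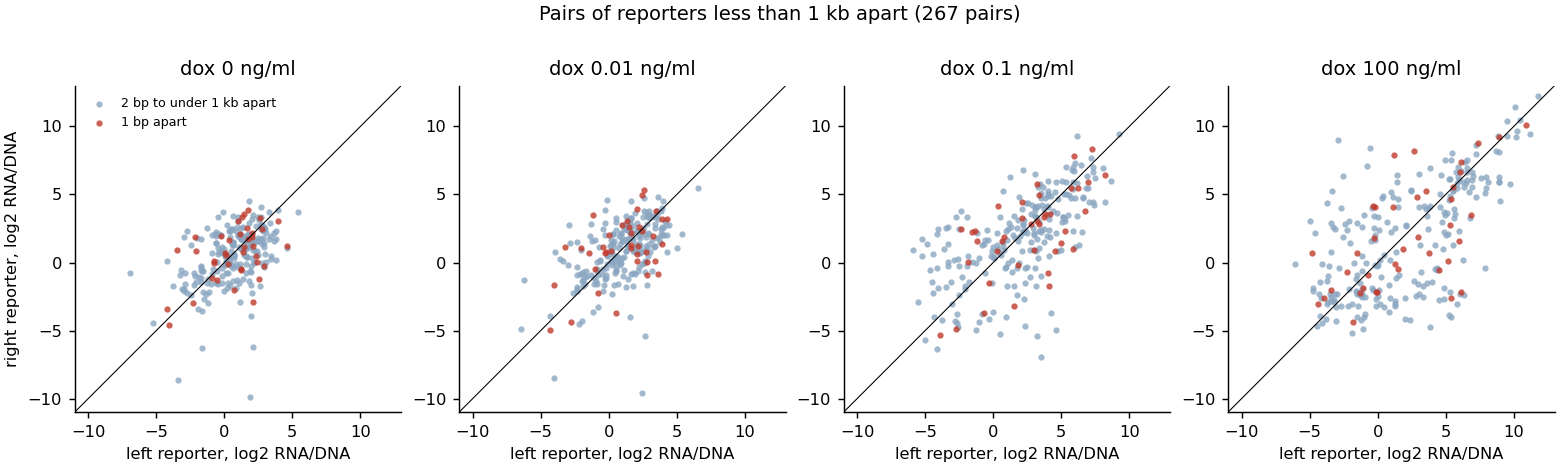
Level of the right reporter (y axis) against the left reporter (x axis) of each of the 267 pairs under 1 kb, as log2 RNA/DNA with the pool mean at 0, mean of 2 cultures, with a panel per dox dose; pairs at 1 bp are red and the line is equality. The points spread out with dose, and the Pearson r goes through 0.46, 0.53, 0.62 and 0.61 from dox 0 to dox 100.

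Each pair was also tested by itself, with edgeR's quasi-likelihood test of the left over the right RNA to DNA ratio, fitted on all pairs under 10 kb with Benjamini-Hochberg adjustment at 0.05. At dox 0, 116 of 267 pairs under 1 kb passed (43.4%), against a background of 45.4% over all pairs under 10 kb. At 0.01 ng/ml it was 111 of 267 (41.6%; background 46.0%), at 0.1 it was 67 of 265 (25.3%; background 27.6%) and at dox 100 it was 49 of 227 (21.6%; background 21.0%). The shares under 1 kb thus lay near the background at each dose. In the 1 bp class 18 of 39 pairs passed at dox 0, with the minus-strand reporter higher in 9 and the plus-strand reporter higher in 9. Of the pairs that passed at dox 0, 87 also passed at 0.01, all with the same sign, and 29 also passed at dox 100, with the same sign in 24. There were 12 pairs that passed at every dose and 96 that passed at none. How far the counts depend on a single culture cannot be read from fits without the RNA of 1 culture. The spread in such fits comes from the DNA counts alone. With the culture as a replicate block, 29 passed at dox 100.

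The pairs at adjacent positions held both close and wide readings, and wider ones were seen at longer distances. Over the 39 pairs the minus-strand reporter was higher in 21 and the plus-strand reporter in 18 at dox 0, and the median of minus less plus was 0.19, with a range of −4.37 to 5.01. The difference was within 1 in 21 pairs and over 3 in 6. At dox 100 it was within 1 in 9 pairs and over 3 in 12, with a range of −6.67 to 8.30 and the minus-strand reporter higher in 21. At 0.1 ng/ml the minus-strand reporter was higher in 23 pairs and the plus-strand reporter in 16. Neither strand was thus ahead throughout.

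**Figure D3:**
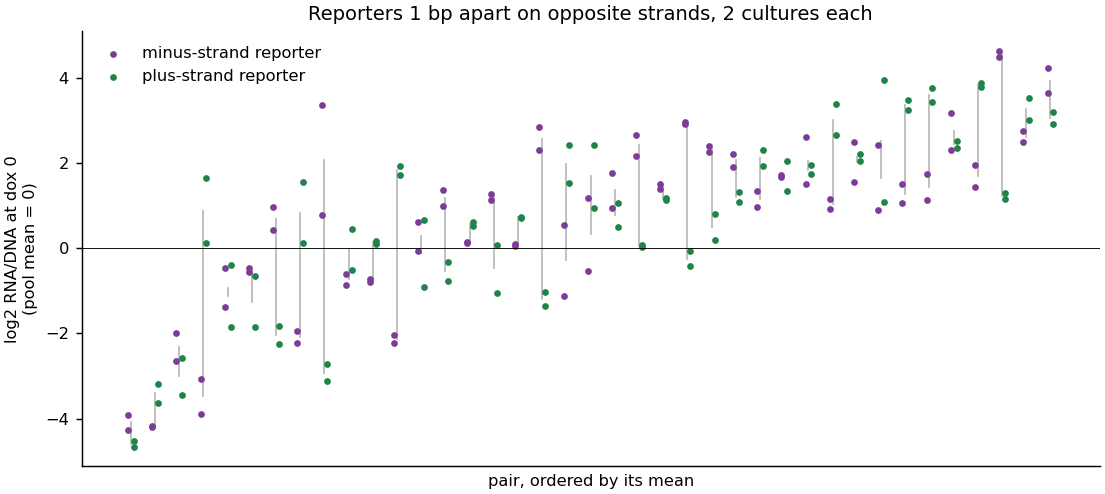
Level at dox 0 (y axis, log2 RNA/DNA with the pool mean at 0) of the minus-strand and plus-strand reporter of the 39 pairs at 1 bp (x axis, ordered by the pair's mean), a point per culture and a grey line between the means. In 21 pairs the means lie within 1 of each other and in 6 they are more than 3 apart, and either strand can be the higher one.

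The 4 pairs at 1 bp that differed least at dox 0 lay on chromosomes 3, 13, 17 and 2. On chromosome 3 the reporter at 100908593 (pool A) stood at 1.73 and 1.68 in the 2 cultures and its neighbour at 100908594 (pool D) at 2.06 and 1.34, an edgeR difference of 0.04 ± 0.35 (SE, adjusted p = 0.931). Their cultures overlapped at dox 0, and at dox 100 they did not. There the pool A reporter had 1424 and 463 RNA counts and the pool D reporter 0 and 0, beside 107 and 335 DNA counts. Against a floor of 3 counts over both cultures, the pool A reporter was at least 232-fold higher than its neighbour at dox 100 (edgeR adjusted p = 0.0128, and 0.000968 for the difference in response between dox 100 and dox 0).

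On chromosome 13 the reporters at 63383917 (pool B) and 63383918 (pool D) also started together and then took opposite courses. At dox 0 they stood at 2.49 and 1.55 in pool B and at 2.23 and 2.05 in pool D, a difference of −0.17 ± 0.39 (SE, edgeR adjusted p = 0.750). At dox 100 they stood at 3.34 and 1.95 in pool B and at 7.88 and 8.47 in pool D, a difference of −5.59 ± 0.61 (SE, edgeR adjusted p = 0.00503). Within its own pool the reporter at 63383917 fell by 1.88 ± 0.59 at dox 100 against dox 0 (SE, edgeR adjusted p = 0.0169), with 126 and 84 RNA counts at dox 100 against 1265 and 1291 at dox 0. Its level was not lower, since levels are set to 0 anew at each dose and the dose test is scaled otherwise. Its neighbour rose by 3.24 ± 0.27 (SE, edgeR adjusted p = 5.17e-06), with 7587 and 6732 RNA counts at dox 100 against 3551 and 3903 at dox 0. At 0.1 ng/ml the difference between them was −1.57 ± 0.38 (SE, edgeR adjusted p = 0.0193) and at 0.01 it was −0.40 ± 0.26 (adjusted p = 0.245).

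The other two of the closest pairs were less clear at high dox. On chromosome 17 the reporter at 22876574 (pool D) stood at −1.37 and −0.47 at dox 0 and its neighbour at 22876575 (pool C) at −1.84 and −0.39, with overlapping cultures. The first had 81 and 0 RNA counts at dox 100 and the second 0 and 0, so its cultures disagreed and no difference was detectable (edgeR adjusted p = 0.217). On chromosome 2 the reporters at 17860456 (pool A) and 17860457 (pool D) stood at 1.51 and 2.62, and at 1.96 and 1.75, at dox 0. At dox 100 they stood at 4.52 and 6.25, and at 5.06 and 4.21, again overlapping (difference 0.70 ± 1.00, SE, edgeR adjusted p = 0.657). At 0.01 ng/ml this pair did pass, at 1.24 ± 0.40 (SE, edgeR adjusted p = 0.0321), with 3.66 and 2.82 for the pool A reporter and 1.92 and 2.02 for the pool D reporter.

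The 4 pairs at 1 bp that differed most at dox 0 lay on chromosomes 13, 12, 11 and 19, and in each the cultures were apart at dox 0. On chromosome 13 the reporter at 53279848 (pool C) stood at 0.79 and 3.37 and its neighbour at 53279849 (pool A) at −3.11 and −2.73, a difference of 4.48 ± 0.93 (SE, edgeR adjusted p = 0.00409). The pool C reporter had 106 and 14 DNA counts there, and its level differed between cultures accordingly. The pool A reporter then rose by 3.29 ± 0.62 at dox 100 against dox 0 (SE, edgeR adjusted p = 0.000940), with 253 and 192 RNA counts at dox 100 against 94 and 104 at dox 0. The difference at dox 100 was 3.51 ± 0.99 and did not pass (edgeR adjusted p = 0.0520).

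On chromosome 11 both reporters of the pair came from pool D, so their difference needs no scaling between pools. The reporter at 117451102 stood at −2.04 and −2.23 at dox 0 and that at 117451103 at 1.94 and 1.73, far apart in both cultures (difference −4.01 ± 0.42, SE, edgeR adjusted p = 0.000143). The counts behind it were 28 and 27 RNA against 154 and 158 DNA on the left, and 1256 and 1232 RNA against 424 and 448 DNA on the right. The difference was −4.52 ± 0.53 at 0.01 (SE, edgeR adjusted p = 0.000300) and −3.79 ± 0.97 at 0.1 (adjusted p = 0.0246). At dox 100 the left reporter had no RNA and the right one 327 and 0 counts, and the pair did not pass (adjusted p = 0.210).

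The reporter on chromosome 12 at 60303669 (pool D) stood at −3.89 and −3.06 at dox 0, and that at 60303670 (pool B) at 0.12 and 1.66. The difference was −4.18 ± 0.72 at dox 0 (SE, edgeR adjusted p = 0.00175) and −4.53 ± 0.58 at 0.01 (adjusted p = 0.000452). It did not pass at 0.1 (−3.86 ± 1.65, edgeR adjusted p = 0.13) or at dox 100 (−1.96 ± 2.76, adjusted p = 0.657), where the left reporter had 0 and 70 RNA counts and the right one 60 and 144. On chromosome 19 the minus-strand reporter was the higher: 43573949 (pool D) stood at 2.31 and 2.85 at dox 0 and 43573950 (pool B) at −1.03 and −1.35, a difference of 3.78 ± 0.45 (SE, edgeR adjusted p = 0.000269). The left reporter had 733 and 473 RNA counts at dox 100 and the right one none, so the left was at least 217-fold higher (edgeR adjusted p = 0.00805). Its own change with dox did not pass (0.80 ± 0.56, SE, adjusted p = 0.233), whereas the right reporter was lower at dox 100 (adjusted p = 0.0158).

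The widest difference at dox 0 lay between reporters 577 bp apart on chromosome 8. The reporter at 119226073 (plus strand, pool A) stood at 1.87 and 1.85 at dox 0, with 1861 and 2292 RNA counts. Its neighbour at 119226650 (minus strand, pool B) had no RNA in either culture beside 1438 and 1714 DNA counts. The left reporter was at least 2337-fold higher at dox 0 (edgeR adjusted p = 2.58e-06), at least 2643-fold at 0.01 and at least 929-fold at 0.1. At dox 100 the right reporter had 0 and 72 RNA counts, its cultures disagreed, and the pair no longer passed (edgeR adjusted p = 0.370). The right reporter was called higher at dox 100 than at dox 0 (adjusted p = 0.00962) on the RNA of that single culture.

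The other largest differences named at over 300 bp lay on chromosomes 4 and 1. On chromosome 4 the reporter at 104826146 (pool D) had 424 and 423 RNA counts at dox 0 and that at 104826829 (pool C) 13 and 0, a difference of 7.13 ± 1.38 (SE, edgeR adjusted p = 0.00299). By dox 100 the left reporter had 137 and 346 RNA counts and the right none, at least 473-fold apart (adjusted p = 0.0114). On chromosome 1 the reporter at 66751600 (pool A) had 15 and 15 RNA counts beside 2495 and 4199 DNA counts at dox 0, and that at 66752179 (pool C) 165 and 220 RNA counts beside 505 and 365 DNA counts. These reporters share a strand, and their difference was −6.28 ± 0.45 (SE, edgeR adjusted p = 4.07e-05).

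At over 100 up to 300 bp the largest difference was within pool D on chromosome 16. The reporter at 20362055 (plus strand) stood at 2.00 and 1.93 at dox 0 and that at 20362342 (minus strand) at −4.16 and −3.69, a difference of 6.02 ± 0.54 (SE, edgeR adjusted p = 7.20e-05). From 0.1 ng/ml on the right reporter had no RNA, and the left was at least 566-fold higher at 0.1 (adjusted p = 0.00190) and at least 370-fold higher at dox 100 (adjusted p = 0.0153). On chromosome 6 the reporters at 97051372 (pool D) and 97051579 (pool B), both on the plus strand, stood at 2.08 and 3.22, and at −1.78 and −1.59, at dox 0 (difference 4.27 ± 0.56, SE, edgeR adjusted p = 0.000473). On chromosome 18 the reporter at 22963662 (pool D) had 61 and 90 RNA counts at dox 0 and that at 22963889 (pool C) 0 and 1 (edgeR adjusted p = 0.00422).

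At 2 to 100 bp the pairs named for the largest difference included the closest pair beyond 1 bp. On chromosome 14 the reporters at 76484584 (pool D) and 76484591 (pool B) lay 7 bp apart on the same strand and stood at −1.98 and −1.42, and at 2.20 and 1.23, at dox 0 (difference −3.39 ± 0.58, SE, edgeR adjusted p = 0.00162). The left reporter had no RNA at dox 100 and the right had 416 and 261 counts, so the right was at least 259-fold higher (adjusted p = 0.00727). On chromosome 12 the reporters at 71900496 (pool D) and 71900566 (pool A) stood at −1.90 and −2.15, and at 1.91 and 1.75, at dox 0 (difference −3.85 ± 0.38, SE, edgeR adjusted p = 0.000124). Both were called lower at dox 100 than at dox 0; the left had no RNA there and the right 134 and 102 counts against 2133 and 2435 at dox 0. On chromosome 3 the reporter at 10916530 (pool B) had 57 and 69 RNA counts at dox 0, and that at 10916624 (pool C) had none at any dose, beside 959 and 279 DNA counts at dox 0 (edgeR adjusted p = 0.00239).

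The noise-corrected SD was larger for opposite-strand than for same-strand pairs, while the medians did not differ in the same way in every distance class. At 2 bp to under 1 kb the noise-corrected SD was 1.65 at dox 0 for the 120 same-strand pairs and 2.28 for the 108 opposite-strand pairs. It was 1.52 and 2.33 at 0.01, 2.28 and 2.79 at 0.1, and 2.49 and 3.50 at dox 100. The medians of the absolute difference lay closer, at 1.01 for same-strand and 1.21 for opposite-strand pairs at dox 0 and at 1.90 and 2.50 at dox 100. In the class over 300 bp, which holds 145 of these pairs, the medians ran the other way, at 1.07 for same-strand and 1.03 for opposite-strand pairs at dox 0 and at 2.06 and 1.85 at dox 100. Without the chromosome 8 pair above, an opposite-strand pair, the opposite-strand SD was 1.99 at dox 0, 2.04 at 0.01, 2.62 at 0.1 and 3.50 at dox 100. Where both reporters had RNA in both cultures, the SD was 1.60 for same-strand and 1.78 for opposite-strand pairs at dox 0 and 1.32 and 1.72 at dox 100. At 1 to 10 kb no such order was seen, with 2.18 for 603 same-strand and 2.01 for 573 opposite-strand pairs at dox 0 and 3.13 and 3.31 at dox 100. The difference between orientations was not tested, since pairs are not replicates.

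**Figure D4:**
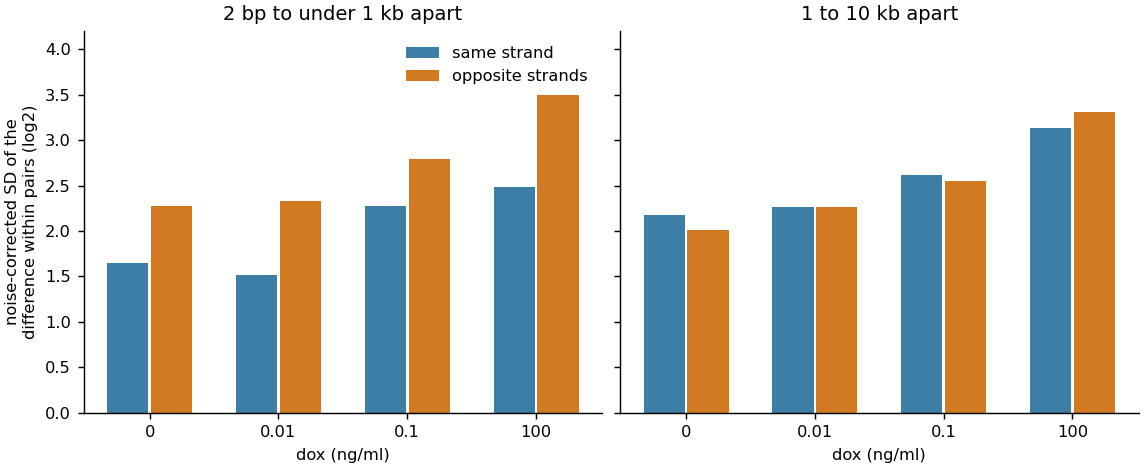
Noise-corrected SD of the difference in log2 RNA/DNA within pairs (y axis) at each dox dose (x axis), for reporters on the same strand and on opposite strands, at 2 bp to under 1 kb (left panel) and 1 to 10 kb (right panel). In the left panel the same-strand bar is the lower one at each dose; in the right panel it is the higher one at dox 0, at 2.18 against 2.01, and the lower one at dox 100, at 3.13 against 3.31.

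The order of the SDs was the same in each pool class. In same-pool pairs the noise-corrected SD at dox 0 was 1.46 for 24 same-strand and 2.09 for 33 opposite-strand pairs, and in different-pool pairs 1.70 for 96 and 2.36 for 75. At dox 100 it was 1.86 and 3.63 in same-pool pairs, and 2.63 and 3.44 in different-pool pairs. The widest class at dox 100 was that of opposite-strand pairs at over 100 up to 300 bp, with an SD of 4.45 and a median absolute difference of 4.28 over 26 pairs, against 2.12 and 2.28 over 32 same-strand pairs at that distance. Among opposite-strand pairs at 2 bp to under 1 kb, those running minus then plus had an SD of 1.80 and those running plus then minus 2.67 at dox 0, and 3.70 and 3.29 at dox 100.

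Same-pool and different-pool pairs had similar SDs over all distances and differed in some classes. Over all pairs under 1 kb, the noise-corrected SD was 1.83 for 64 same-pool and 2.01 for 203 different-pool pairs at dox 0, and 2.87 and 3.03 at dox 100. At 1 bp and dox 100 it was 1.07 for 7 same-pool and 3.13 for 32 different-pool pairs. Both reporters lacked RNA at dox 100 in 21.9% of same-pool and 12.3% of different-pool pairs. Both were called lower at dox 100 than at dox 0 in 26.6% and 15.8%, and both higher in 7.81% and 15.3%. These differences were not tested. The DNA counts show how far the reporters of a pair moved together between cultures. Over the 64 same-pool pairs, the log2 ratio of DNA in culture 1 to culture 2 had an r of 0.07 between the reporters of a pair at dox 0, against −0.03 in the 203 different-pool pairs. For the 7 same-pool pairs at 1 bp the r was −0.58.

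Members stood above the other autosomal reporters at each dose, and more so at 0.1 and dox 100 than at dox 0. Their median level, as a mean over the 4 pools, was 0.84 at dox 0, 1.19 at 0.01, 2.16 at 0.1 and 1.51 at dox 100, against 0.14, 0.13, 0.10 and −1.27 for the others. The difference was 0.70 ± 0.29 at dox 0, 1.06 ± 0.28 at 0.01, 2.06 ± 0.22 at 0.1 and 2.78 ± 0.57 at dox 100 (SD, n = 4 pools). It was positive in 4 of 4 pools at each dose, and each exact sign-flip permutation test gave p = 0.13, two-sided, the smallest that 4 pools allow. No RNA in either culture was seen in 30.0% of members and 49.2% of the others at dox 100, and in 6.71% and 18.8% at 0.1. From culture 2 alone (without replicate 1) the difference at dox 100 was 3.99, and from culture 1 alone (without replicate 2) it was 4.41. With a pseudocount of 0.1 it was 4.54 and with 5 it was 1.67. The difference at 0.1 ng/ml with a pseudocount of 5 was 1.81, so no rise from there to dox 100 was seen with it.

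The level was not particular to reporters under 1 kb from another. Reporters whose nearest neighbour lay at 1 to 10 kb stood at 0.90 ± 0.07 at dox 0 and 2.01 ± 0.22 at 0.1 (mean of pool medians ± SD, n = 4 pools), close to the members with theirs at over 300 bp, at 0.83 ± 0.29 and 2.21 ± 0.25. At 10 to 100 kb the values were 0.32 ± 0.03 and 0.37 ± 0.15, and at 100 kb or more they were −0.66 ± 0.08 and −1.89 ± 0.24. At dox 100 the values were 1.58 ± 1.02 at 300 bp to 1 kb, 0.87 ± 0.33 at 1 to 10 kb, −1.02 ± 0.11 at 10 to 100 kb and −2.16 ± 0.09 at 100 kb or more. The share of reporters without RNA at dox 100 was 30.5%, 32.6%, 45.9% and 62.9% in these 4 classes. Beyond 10 kb the level was thus lower with a longer distance to the nearest reporter, and below 10 kb no such order was seen. Among members the 2 to 100 bp class was the lowest at dox 100, at −0.64 ± 1.25 over 50 reporters, with 36.0% lacking RNA.

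**Figure D5:**
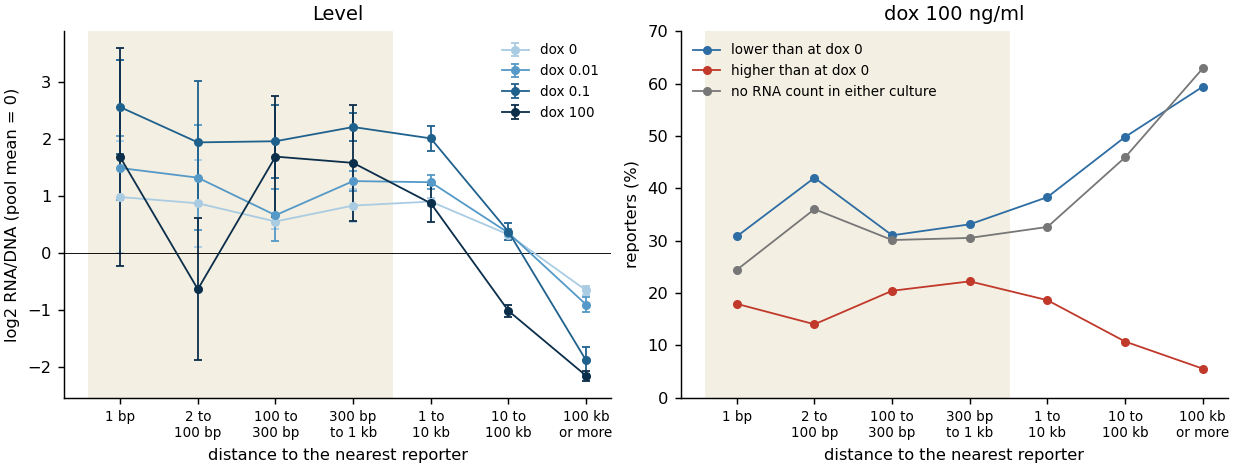
Left panel: level (y axis, log2 RNA/DNA with the pool mean at 0; points are means of 4 pool medians and bars the SD over pools) by distance to the nearest reporter (x axis), a line per dox dose. Right panel: percentage of reporters in each distance class that were called lower or higher at dox 100 than at dox 0, or had no RNA in either culture at dox 100; the shaded classes are the members. Levels fall and lost RNA rises from the 1 to 10 kb class to the class at 100 kb or more, while the classes up to 10 kb lie near each other apart from 2 to 100 bp at dox 100.

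The change with dox was tested per pool on all reporters, with edgeR's quasi-likelihood test of the RNA to DNA ratio and Benjamini-Hochberg adjustment within the pool. Libraries are scaled to one another, so a reporter counts as higher or lower only against the bulk of its pool. At dox 100 against dox 0, 168 of 507 members were lower (33.1%; background 50.0% of all 10785 tested) and 103 were higher (20.3%; background 10.8%). The share of members that were lower was 35.5%, 34.7%, 33.6% and 29.9% in pools A to D, and the share that were higher 19.1%, 21.4%, 21.1% and 19.7%. Of the 168 lower members, 138 had no RNA in either culture at dox 100, while 101 of the 103 higher members had RNA in both. At 0.1 ng/ml against dox 0, 44 members were lower (8.68%; background 19.3%) and 95 higher (18.7%; background 8.88%). Reporters with their nearest neighbour at 1 to 10 kb had similar shares, with 38.3% lower and 18.6% higher at dox 100 and 9.80% lower and 18.8% higher at 0.1. Both classes were thus lower less often and higher more often than the whole table in these libraries, a difference that was not tested.

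The split between lower and higher depends on the scaling. DESeq2 size factors shifted all changes at dox 100 by a median of 0.58 and library totals shifted them by −0.92, on the log2 scale. Among members, 147 were then lower and 139 higher at dox 100 with size factors, and 215 lower and 58 higher with library totals. The shares of all reporters moved with them, to 45.2% lower and 14.6% higher, and to 59.8% lower and 5.69% higher. At 0.1 the shifts were 0.47 and −1.17, and members were split into 34 lower and 116 higher with size factors and 88 lower and 56 higher with library totals. Without dox 0 replicate 1 or 2, 90 and 83 members were called at 0.1, against 139 with both; of these, 24 and 25 were lower and 66 and 58 higher. Without dox 0.1 replicate 1, 69 were lower at 0.1.

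The calls for change with dox were then set side by side within pairs. At dox 100 against dox 0, both reporters were lower in 49 of 267 pairs (18.4%), both higher in 36 (13.5%), and 1 was lower and the other higher in 8. Among pairs on different chromosomes the shares were 25.1% both lower, 1.17% both higher and 10.8% opposite. At 1 to 10 kb they were 18.7%, 12.5% and 4.76% of 1176 pairs. At 0.1 ng/ml both were higher in 34 pairs (12.7%, against 0.783% on different chromosomes), both lower in 3 (1.12%, against 3.72%) and opposite in 1 (0.375%, against 3.42%). Pairs with both reporters higher thus made up a larger share under 1 kb than on different chromosomes at both doses, whereas pairs with both lower and pairs with opposite calls made up smaller shares. The pairs on different chromosomes are of all autosomal reporters, however. At dox 100, 33.1% of members were lower and 20.3% higher, against 50.0% and 10.8% of all tested. The shares thus do not show how far calls within a pair go together, and members on different chromosomes were not counted here. At 1 to 10 kb the shares at 0.1 were 12.8% both higher, 1.79% both lower and 0.510% opposite, near those under 1 kb.

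The response itself, whether the reporters of a pair differed in their change between dox 100 and dox 0, passed in 46 of 267 pairs (17.2%; background 19.3% of all pairs under 10 kb). It passed in 6 of 39 pairs at 1 bp, 14 of 120 same-strand pairs at 2 bp to under 1 kb and 26 of 108 opposite-strand pairs. In 38 of the 46 pairs 1 reporter had no RNA in either culture at dox 100, as in 35 of the 49 pairs that differed at that dose. With 1 culture of dox 0 or of dox 100 left out, this fit takes its spread from the cultures of the other dose alone. Such fits therefore do not show how far the count depends on a single culture.

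Among the 8 pairs with opposite calls, 5 had a lower reporter without any RNA at dox 100. Of the 5 named, the first lay on chromosome 6, with reporters 459 bp apart on the plus strand. The one at 122558760 (pool A) had 0 and 0 RNA counts at dox 100 against 88 and 77 at dox 0, and was lower (edgeR adjusted p = 0.000628). The one at 122559219 (pool D) had 3537 and 3922 against 1031 and 1135, and rose by 4.19 ± 0.41 on the log2 scale (SE, edgeR adjusted p = 1.11e-05). At dox 100 the right reporter was at least 2590-fold higher (adjusted p = 0.00503), while at dox 0 the difference was −2.91 ± 0.49 (SE, adjusted p = 0.00148). The response passed with adjusted p = 0.000166. Another reporter on the minus strand at 122559829 (pool C), named after its values were seen, had 185 and 180 RNA counts at dox 100 against 67 and 58 at dox 0 and was also called higher.

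The pair on chromosome 14 at 76552118 (pool B) and 76552782 (pool C) had overlapping cultures at dox 0, at 0.51 and 0.68, and at 2.23 and 0.64 (difference −0.56 ± 0.72, SE, edgeR adjusted p = 0.560). At dox 100 the left reporter had 329 and 520 RNA counts and was higher (1.59 ± 0.51, SE, adjusted p = 0.0184), and the right had none and was lower (adjusted p = 0.000602), at least 121-fold apart. On chromosome 3 the reporters at 54391279 (pool C) and 54392118 (pool B), on the same strand, took such a course too: 606 and 401 RNA counts at dox 100 against 581 and 664 at dox 0 on the left, and none against 63 and 59 on the right. The left was at least 111-fold higher at dox 100 (edgeR adjusted p = 0.00718) and at least 267-fold at 0.1 (adjusted p = 0.00118), against a difference of 2.09 ± 0.40 at dox 0 (SE, adjusted p = 0.00267).

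In the remaining 2 named pairs the order turned or appeared with dox at low counts. On chromosome 2 the reporter at 55063251 (pool C) was above that at 55064028 (pool B) at dox 0, by 1.49 ± 0.45 (SE, edgeR adjusted p = 0.0225), with 44 and 41 against 51 and 69 RNA counts and 206 and 226 against 870 and 1271 DNA counts. The right reporter had 53 and 145 RNA counts at dox 100 and the left none, at least 18.6-fold apart in the other direction (adjusted p = 0.0279). On chromosome 14 the reporters at 13981937 (pool B) and 13982472 (pool D) overlapped at dox 0 (−0.21 ± 0.92, SE, edgeR adjusted p = 0.866), and at dox 100 the left had 102 and 76 RNA counts and the right none, at least 15.6-fold apart (adjusted p = 0.0342). Leaving out 1 dox 0 culture kept the direction of the fitted response in each of the 5 named pairs. Such fits do not show how far a pass depends on a single culture.

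Some members lay in runs: 10 groups of at least 3 reporters were linked by gaps under 1000 bp, and 1 held 4. That run was on chromosome 2 between 29690158 and 29691036 and came from pools A, B and C, with a 1 bp pair at its right end. From left to right the mean levels at dox 0 were 2.67, 2.78, 2.75 and 2.45, which lie close together. At dox 100 they were 6.57, 6.95, 6.07 and 6.66, and 3 of the 4 were called higher. The RNA counts of the first were 2111 and 2003 at dox 100 against 3008 and 3379 at dox 0, and its RNA to DNA ratio relative to its pool rose by 1.38 ± 0.34 (SE, edgeR adjusted p = 0.00466). On chromosome 16 a run of 3 at 8780057, 8780895 and 8781756 was also named after its values were seen. Its mean levels were 3.78, 1.72 and 1.88 at dox 0 and 11.19, 9.47 and 9.28 at dox 100, each against the pool mean of that dose. All 3 were called higher, with 9175 and 12457 RNA counts at dox 100 against 1394 and 1715 at dox 0 in the first. Runs of 3 on chromosomes 17 (from 45590936) and 8 (from 80662385) were also called higher throughout. Not all runs were so alike. The run from 35300545 on chromosome 2 spanned −0.45 to 3.36 at dox 0. At dox 100 the runs from 43573778 on chromosome 19 and 122558760 on chromosome 6 spanned −2.16 to 6.14 and −2.91 to 9.01, each with a lowest reporter without RNA.

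Just inside the distance limit, the reporters on chromosome 8 at 80662385 and 80663382 (both pool D, 997 bp apart) stood at 2.52 and 1.44, and at 0.03 and −0.61, at dox 0. The reporters on chromosome 14 at 105574486 and 105575478 (both pool D, 992 bp apart) stood at −4.68 and −3.82, and at 0.75 and −0.58. Just outside it, those on chromosome 1 at 51798476 (pool C) and 51799477 (pool A), 1001 bp apart, stood at 0.19 and 0.89, and at 2.14 and 3.41. Those on chromosome 13 at 40949024 (pool B) and 40950027 (pool D), 1003 bp apart, stood at 2.00 and 2.40, and at 1.86 and 0.94.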

How the data were processed

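Barcode reads from cDNA (RNA) and genomic DNA were deposited as read counts per reporter, not normalized, with chromosome, position and strand, per the file headers. The submitters' processing notes name Bowtie2 2.0 and mm9; barcode calling and filters are not given in the sources used here. Members and lists were chosen with earlier results of these data known. Reporters needed 10 DNA counts in each DNA library of their pool. Pair tests (edgeR 4.0.16, R 4.3.3) used 8 counts per pair and dose, with pairs of at least 10 RNA counts; dose tests used the 16 libraries of a pool with TMM scaling within assay. The SE beside an edgeR value is its absolute log2 size divided by the square root of F. Both were tested on simulated data. DESeq2 1.42.0 was an alternative. Named were the 4 widest and 4 closest pairs at 1 bp, the 3 widest per other class, 5 pairs with opposite calls, runs of 4 or more and 2 pairs on each side of 1000 bp. Python 3.11.15, numpy 2.4.6, pandas 2.3.3 and matplotlib 3.10.9 were used. Culture numbers mark a shared culture across doses, per the labels; the correlation of same-numbered deviations between dox 100 and dox 0 was −0.05 to 0.00 over the 4 pools.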

Additional observations from a re-analysis of the deposited data

How the results depend on the processing

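Of 158 alternative values for the comparisons, 121 kept their direction and, where tested, their side of 0.05, or stayed within 1.5 times of a count. With a DNA minimum of 100 fewer pairs and reporters were tested, and the pairs that passed numbered 56 at dox 0, 57 at 0.01, 31 at 0.1, 28 at dox 100 and 27 for the response; 101 members were lower at dox 100 and 26 at 0.1. With the DESeq2 Wald test 115 pairs passed at 0.1, 99 at dox 100 and 93 for the response. With 1 fit over all doses 37 passed at dox 0, 47 at 0.01 and 117 at dox 100. With the culture as a replicate block 29 passed at dox 100, and no other count moved by over 1.5 times. With library totals 58 members were higher at dox 100, and 88 were lower and 56 higher at 0.1. Leaving out 1 culture at a time gave 49 to 50 pairs at dox 0, 39 to 45 at 0.01, 88 to 93 at 0.1, 117 to 120 at dox 100 and 1 to 104 for the response. It gave 207 to 335 called members at dox 100 (127 to 245 lower, 77 to 96 higher) and 83 to 148 at 0.1 (24 to 69 lower, 58 to 94 higher). The slope of the same-pool difference with dose was then 0.16 to 0.33. It was −0.02, reversed, with both reporters detected in both cultures. The noise-corrected SD at dox 100 was 4.12 with a pseudocount of 0.1 and 1.61 with both reporters detected. At dox 0 with a DNA minimum of 100, members exceeded the other reporters by 0.53 (exact sign-flip permutation p = 0.25 over 4 pools), and not in every pool. The causes were not tested, apart from the smaller number of pairs and reporters noted. Of 231 values for single pairs, 12 no longer passed 0.05 and 219 kept their side of it. Direction was compared only where the main result passed, and it was kept there. The strand comparison without the widest pair was added after seeing the data. Depth limits levels at dox 100, where 152 members had no RNA.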
